A study of Mus musculus with 12 samples.

Results

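The 10 genes of the dual-specificity MAP kinase phosphatase family were followed in mouse trigeminal nerve and in plexiform neurofibroma of the same nerve. The members were taken by symbol from the deposited count table, 10 of its 47480 gene symbols, and all 10 were found. They were separated by the MAP kinase that each is known to prefer. The 4 ERK-selective members were Dusp5, Dusp6, Dusp7 and Dusp9, the 3 JNK/p38-selective members were Dusp8, Dusp10 and Dusp16, and the 3 broad nuclear members were Dusp1, Dusp2 and Dusp4. Of the 10, 8 were counted highly enough to be tested, and Dusp2 and Dusp9 were not. RNA sequencing covered 6 samples of normal nerve from Nf1 flox/flox mice without Cre (PostnCre-) and 6 samples of plexiform neurofibroma from Nf1 flox/flox mice with it (PostnCre+). Both groups thus carried floxed Nf1, the gene for the RAS brake neurofibromin, and genotype and tumour state coincided. The Cre is named for Postn, the periostin gene, whose regulatory sequence is used to drive recombination in the Schwann cell lineage, so other cells of the tumour can keep intact Nf1. The labels give no age or sex, and they do not say that the samples came from separate animals, so the p-values measure the spread between these samples, which may be technical.

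MAP kinases are switched on by phosphorylation of a threonine and a tyrosine in their activation loop, and dual-specificity phosphatases remove both phosphates. Several of these phosphatase genes are themselves switched on by the kinases they inactivate, which makes them feedback brakes as well as readouts of pathway activity. Dusp6, Dusp7 and Dusp9 act on ERK in the cytoplasm, Dusp5 acts on ERK in the nucleus, Dusp8, Dusp10 and Dusp16 act mainly on JNK and p38, and the inducible nuclear enzymes Dusp1, Dusp2 and Dusp4 act on several MAP kinases.

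All 10 members share one catalytic loop, which holds the cysteine that attacks the phosphate and the arginine that binds it. The coding sequence of this loop is shown because it is the catalytic site of every member and sets the classes side by side, and a loop of this kind is also found in other cysteine-based phosphatases. Each line gives 24 bases of the mouse reference (GRCm38, GENCODE vM21), 5′ to 3′ on the coding strand, with the codons of the cysteine and the arginine in capitals.
Dusp5: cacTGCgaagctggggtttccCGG
Dusp6: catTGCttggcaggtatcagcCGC
Dusp7: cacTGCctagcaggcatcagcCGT
Dusp9: cacTGTctggcaggggtcagcCGC
Dusp8: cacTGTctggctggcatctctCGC
Dusp10: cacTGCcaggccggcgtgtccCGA
Dusp16: cacTGCttagctgggatctctCGC
Dusp1: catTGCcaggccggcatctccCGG
Dusp2: cacTGCcaagctggcatctctCGC
Dusp4: cacTGCcaggccggcatctccCGA

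The loop lay in a coding exon of each gene. For Dusp6 it was at chr10:99266027-99266050 on the plus strand, in exon 3 of 3, and the cysteine was codon 293 of 381. For Dusp4 it was at chr8:34818433-34818456 on the plus strand, in exon 4 of 4, and the cysteine was codon 284 of 398. The loops of the other ERK-selective genes were at chr19:53540951-53540974 for Dusp5, chr9:106373674-106373697 for Dusp7 and chrX:73642119-73642142 for Dusp9. Those of the JNK/p38-selective genes were at chr7:142083333-142083356 for Dusp8, chr1:184074293-184074316 for Dusp10 and chr6:134720559-134720582 for Dusp16. Those of the remaining broad nuclear genes were at chr17:26506592-26506615 for Dusp1 and chr2:127337616-127337639 for Dusp2, and Dusp1, Dusp8 and Dusp16 lie on the minus strand. The cytoplasmic ERK phosphatases Dusp6, Dusp7 and Dusp9 shared 19 of the 24 bases in every pair. The nuclear ERK phosphatase Dusp5 shared only 13 with Dusp6, the fewest of any pair of members. Dusp8 and Dusp16 shared 20, and Dusp1 and Dusp4 shared 22. The loop did not separate the classes everywhere. The JNK/p38-selective Dusp10 also shared 22 bases with Dusp4, but 15 with Dusp16 of its own class. Dusp8 and Dusp16 each shared 21 with the broad nuclear Dusp2. These are counts of bases, and bases can differ where the encoded amino acids do not. The loops of Dusp6, Dusp7, Dusp8 and Dusp16 all encode HCLAGISR, although Dusp6 and Dusp8 shared only 16 bases. The amino acids of the loop therefore do not tell Dusp6 and Dusp7 from Dusp8 and Dusp16. The loops of Dusp1, Dusp2 and Dusp4 all encode HCQAGISR.

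Total counts ran from 14160025 to 19989351 per library. Nf1, the floxed gene, measured 132.7, 85.55, 149.4, 173.2, 155.2 and 90.55 CPM (counts scaled to library size) in the normal libraries and 93.09, 86.39, 86.82, 79.88, 69.55 and 86.91 CPM in the tumour libraries. Its log2 fold change was -0.65 (edgeR adjusted p = 0.0179), the groups overlapped, and the count covers the whole gene, so it need not fall with the floxed part. Transcripts of sensory neurons were abundant in both groups, among them Scn10a, a sodium channel of pain-sensing neurons, with a mean of 595 CPM (SD 169) against 507 CPM (SD 96.6) in the tumours (n = 6 each, edgeR adjusted p = 0.448). Schwann lineage markers were called higher for 4 of 7 genes, with a mean log2 CPM between 6.94 and 7.84 in normal nerve and between 7.82 and 8.35 in the tumours. Fibroblast markers were called higher for 4 of 5 genes and macrophage markers for 3 of 7. Libraries that stood apart were normal nerve replicate 6, with the highest score of central nervous system markers (6.85, against at most 5.14 elsewhere), normal nerve replicate 2, with the lowest fibroblast score (4.24) and myelin score (7.85), and plexiform neurofibroma replicate 1, with the highest skeletal muscle score (7.23). Normal nerve replicate 3 had the next highest skeletal muscle score (5.45) and was kept. Member results are also given without the 3 libraries that stood apart, a choice made after the data were seen.

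Per kilobase of transcript, Dusp8 had the highest mean in normal nerve, with a range that overlapped that of Dusp1. On this scale Dusp6 was the highest member in every tumour library. The order depends on the length used, since in CPM Dusp8 and Dusp6 were close in the tumours, with means of 45.9 and 44.75 CPM. On the scale of CPM per kilobase of the longest transcript (RPKM), the normal nerve was led by Dusp8 at 12.0 RPKM ± 3.03, Dusp1 at 10.2 RPKM ± 3.61, Dusp5 at 8.71 RPKM ± 2.03 and Dusp6 at 8.01 RPKM ± 0.566 (SD, n = 6 each). Each of these overlapped in range with its neighbour in the order, while every Dusp8 library, at 9.97 RPKM or more, was above every Dusp6 library, at 8.77 RPKM or less. Dusp16 at 6.02 RPKM ± 0.793 and Dusp7 at 5.58 RPKM ± 1.28 overlapped with each other, and all libraries of Dusp16 were below the lowest library of Dusp6. Dusp10 at 2.01 RPKM ± 0.308 and Dusp4 at 1.66 RPKM ± 0.364 lay lower again, separated from Dusp7 in all 6 libraries.

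By RPKM, Dusp6 led the order alone in the tumours. Dusp6 stood at 16.0 RPKM ± 2.14, with its lowest library at 13.7 RPKM and the highest Dusp8 library at 11.5 RPKM. Dusp8 followed at 9.55 RPKM ± 1.28, and Dusp1, Dusp5, Dusp7 and Dusp16 followed between 6.05 and 7.53 RPKM with overlapping ranges. Dusp4 at 2.90 RPKM ± 0.943 passed Dusp10 at 1.68 RPKM ± 0.2997 in the order of means, and their ranges overlapped. Dusp2 and Dusp9 were the lowest members in both groups, Dusp2 at 0.25 RPKM in normal nerve and 0.24 RPKM in the tumours and Dusp9 at 0.04 RPKM in each.

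**Figure D1:**
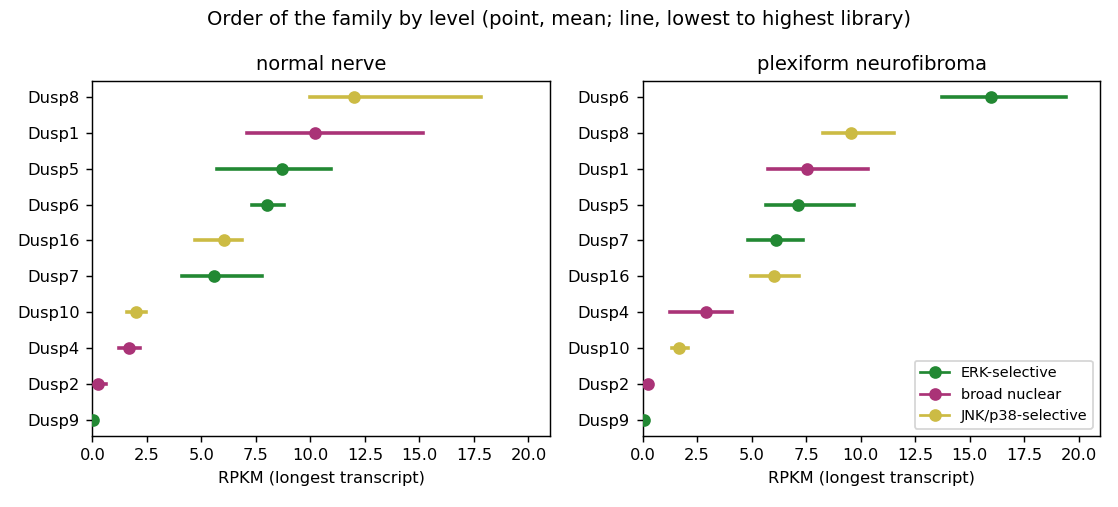
Mean level of each phosphatase in RPKM (horizontal axis), ordered within normal nerve (left) and plexiform neurofibroma (right), with the line running from the lowest to the highest of 6 libraries and colour giving the class. Dusp6 lies wholly below Dusp8 in normal nerve and wholly above it, at a mean of 16.0 RPKM, in the tumours.

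Dusp6 and Dusp4 rose in plexiform neurofibroma, and no member was called lower. Of the 8 tested members, 2 were called higher by edgeR at an adjusted p under 0.05, against 10.0% of all 17236 genes tested. Of the 8, 0 were called lower, against 8.63% of all genes. At an unadjusted p under 0.05 there was 1 member lower, Dusp8. DESeq2 called 0 members lower and limma-voom called 1, Dusp5. The groups did not overlap for 1 member, Dusp6, and 4.40% of all tested genes had tumours wholly above the normal libraries. A count of 2 among 8 genes is not read as a property of the family beside this background, so each member is described on its own. By class, 1 of 3 tested ERK-selective members, 1 of 2 tested broad nuclear members and 0 of 3 JNK/p38-selective members were called higher by edgeR, and 0 of these 3 were higher at an unadjusted p under 0.05, by DESeq2 or by limma-voom. The median log2 fold changes of the classes were 0.13, 0.19 and -0.26, beside -0.02 over all genes tested.

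**Figure D2:**
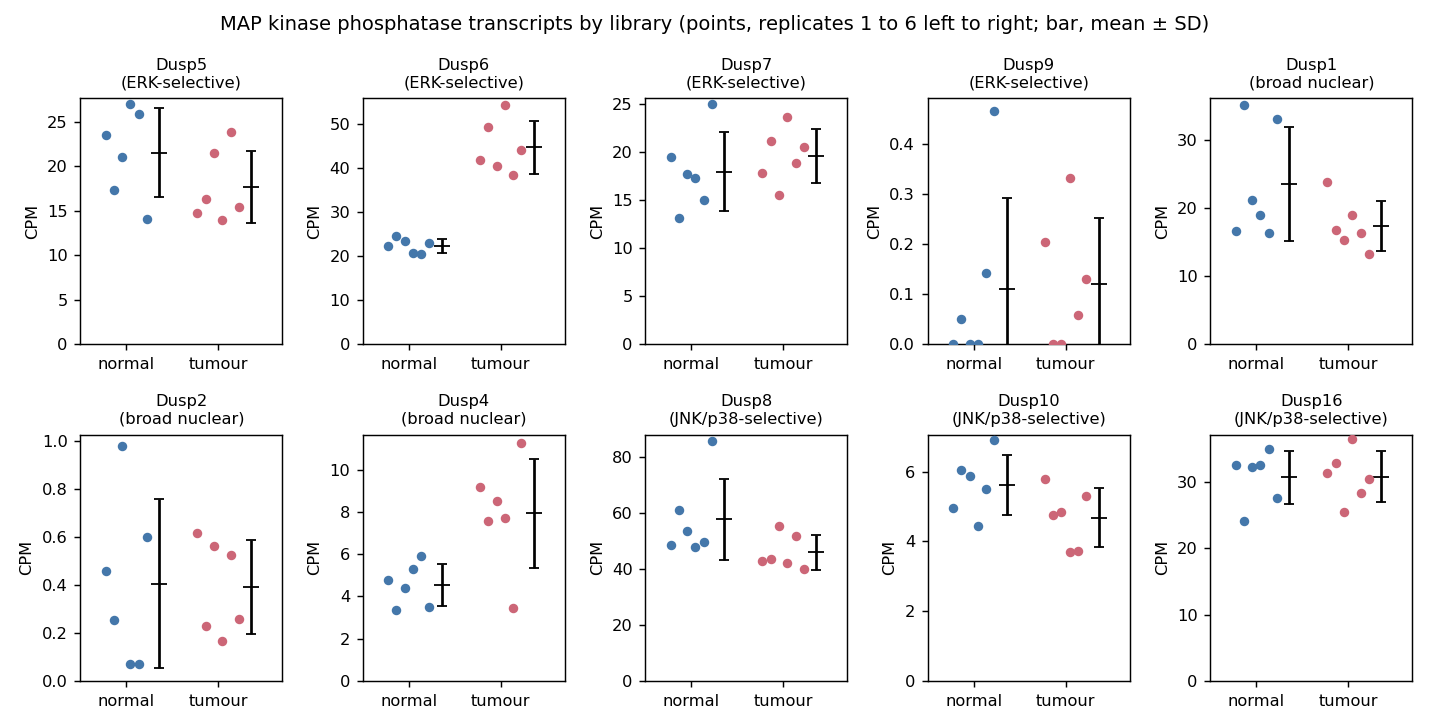
Level of each of the 10 phosphatases in CPM (vertical axis, starting at 0) in every library, with replicates 1 to 6 from left to right within each group and the bar giving mean ± SD. Dusp6 is the one member whose tumour libraries, 38.4 to 54.3 CPM, all lie above its normal libraries, 20.5 to 24.5 CPM.

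Dusp6 (chromosome 10, 99263231 to 99267489, plus strand) encodes the cytoplasmic ERK phosphatase best known as a feedback target of ERK. It measured 22.3, 24.5, 23.5, 20.7, 20.5 and 22.9 CPM in the normal libraries. In the tumours it measured 41.9, 49.3, 40.5, 54.3, 38.4 and 44.1 CPM. All 6 tumours were above all 6 normal nerves, and the normal nerves were tightly grouped, including the 2 that stood apart in other transcripts. The fold change was 2.00 (95% interval 1.75 to 2.28, log2 0.998, SE 0.09, edgeR adjusted p = 0.000297), which was the second smallest p among all 17236 genes. The coefficient of variation in normal nerve was 7.07%, the lowest of the members. In bulk tissue, more cells that express Dusp6 and more Dusp6 RNA per cell cannot be told apart.

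Schwann lineage transcripts rose in the same tumours, so Dusp6 was also set against them within each library. The log2 CPM of Dusp6 minus the Schwann lineage score of the same library averaged -2.85 ± 0.38 in normal nerve and -2.58 ± 0.10 in the tumours (SD, n = 6 each). The difference of 0.27 was not distinguishable from the spread between libraries (two-sided exact permutation p = 0.117). Without the 3 libraries that stood apart it was 0.47. That omission took out normal nerve replicates 2 and 6, which had the lowest Schwann lineage scores (7.045 and 6.935). The value of 0.47 is therefore given as a description with no test. Relative to the same score, the differences of the other tested members were 0.02 for Dusp4, -0.57 for Dusp7, -0.71 for Dusp16, -0.98 for Dusp10, -0.99 for Dusp5, -1.02 for Dusp8 and -1.11 for Dusp1. The same score was subtracted from every member, so these differences keep the order of the members' own changes and add no separate support. The difference of Dusp4 was near 0 beside its SD of 0.25 in normal nerve and 0.60 in the tumours. Those of the 6 tested members other than Dusp6 and Dusp4 were below 0. Scored by the median marker in place of the mean, the difference of Dusp6 was -0.02 (exact permutation p = 0.907). With the mean Schwann lineage score as a covariate Dusp6 had a log2 fold change of 0.88 (edgeR adjusted p = 0.145), in a fit that called 0 of all genes tested.

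**Figure D3:**
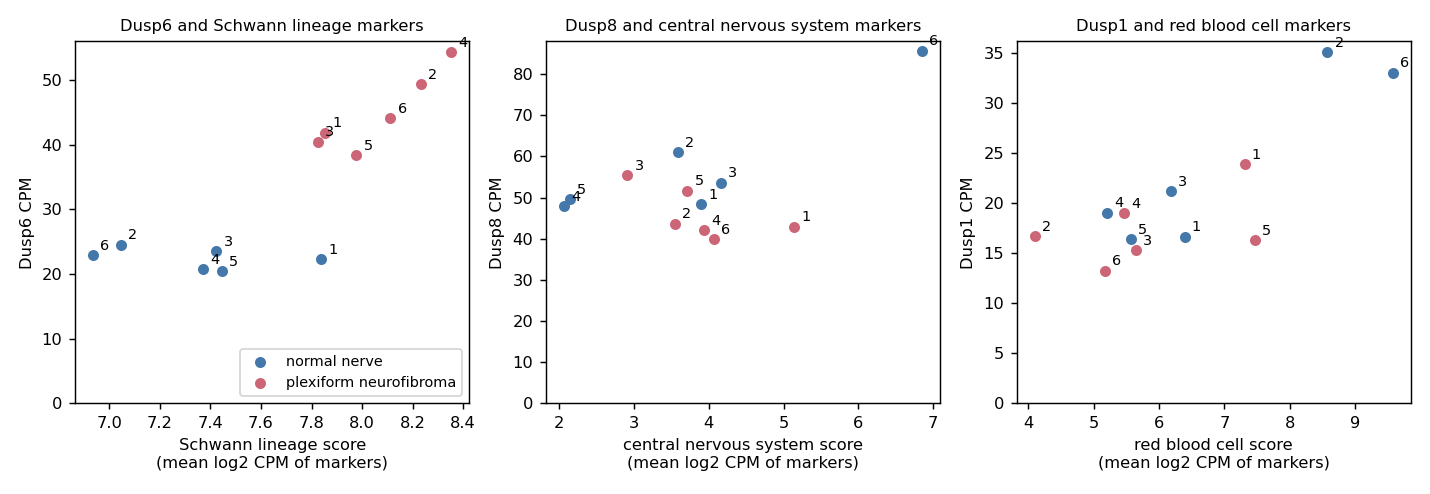
Level of Dusp6, Dusp8 and Dusp1 in CPM (vertical axes) against a marker score of the same library (horizontal axes, mean log2 CPM), with points numbered by replicate and coloured by group. Dusp6 separates the groups along with the Schwann lineage score, Dusp8 is highest in the normal library with the central nervous system score of 6.85, and Dusp1 is highest in the normal libraries with red blood cell scores of 8.58 and 9.58.

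Of the other ERK-selective members, Dusp5 and Dusp7 were not called and Dusp9 was too scarce to test. Dusp7 (chromosome 9, 106368632 to 106375724), the closest relative of Dusp6 among the tested members, spanned 13.2 to 25.0 CPM among normal nerves and 15.6 to 23.7 CPM among tumours. These ranges overlapped almost wholly, and the log2 fold change was 0.13 (95% interval -0.19 to 0.44, edgeR adjusted p = 0.566). Dusp5 (chromosome 19, 53529109 to 53542431), the nuclear ERK phosphatase, measured 23.6, 17.4, 21.1, 27.04, 25.95 and 14.1 CPM in normal nerve, and tumours measured 14.8, 16.3, 21.5, 14.0, 23.9 and 15.5 CPM. Most tumours sat at the lower end of the normal range, with tumour replicates 3 and 5 well inside it and tumour replicate 4 just below it. The log2 fold change of Dusp5 was -0.28 (95% interval -0.67 to 0.10, edgeR adjusted p = 0.267), and limma-voom with sample weights called it lower (-0.44, adjusted p = 0.0387). Dusp9 (chromosome X, 73639419 to 73643514), best known from placenta, was close to absent, with 10 counts over the 6 normal libraries and 13 over the 6 tumours. Between 0 and 7 Dusp9 counts were seen in a library and 5 libraries had 0, so a difference was not detectable at this depth.

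Dusp6 stood higher relative to Dusp5 and Dusp7 in the tumours than in normal nerve. Within each library, log2 CPM of Dusp6 minus that of Dusp5 averaged 0.09 ± 0.44 in normal nerve and 1.35 ± 0.47 in the tumours (SD, n = 6 each). The difference between the groups was 1.27. For Dusp6 minus Dusp7 the mean was 0.34 ± 0.34 in normal nerve and 1.19 ± 0.12 in the tumours. The difference between the groups was 0.85. Without the 3 libraries that stood apart, the differences were 1.49 and 0.86. These pairs were picked after the members' values had been seen, so they are given as a description with no test.

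The start regions of the ERK-selective pair that differed most are shown for comparison, each 250 bases before to 50 after the start site in RefSeq (GRCm38.p6), 5′ to 3′ along the gene, with matches to the searched motifs in capitals. The Dusp6 region is chr10:99262981-99263280 and the Dusp5 region is chr19:53528895-53529194, both on the plus strand.
Dusp6: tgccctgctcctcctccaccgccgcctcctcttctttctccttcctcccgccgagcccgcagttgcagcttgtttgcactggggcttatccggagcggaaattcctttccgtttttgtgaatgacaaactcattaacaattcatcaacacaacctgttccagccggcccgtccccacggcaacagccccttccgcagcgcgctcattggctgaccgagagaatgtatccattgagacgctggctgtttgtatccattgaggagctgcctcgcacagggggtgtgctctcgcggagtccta
Dusp5: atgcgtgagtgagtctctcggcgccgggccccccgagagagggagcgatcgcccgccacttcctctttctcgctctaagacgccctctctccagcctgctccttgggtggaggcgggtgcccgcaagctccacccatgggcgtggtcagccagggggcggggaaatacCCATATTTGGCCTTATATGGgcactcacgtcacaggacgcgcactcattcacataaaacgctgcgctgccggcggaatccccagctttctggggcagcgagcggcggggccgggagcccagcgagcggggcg

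The Dusp5 region held a pair of adjacent CArG boxes, the element bound by serum response factor, whose first bases lay at -82 and -72 from the start site. They read CCATATTTGG and CCTTATATGG. A CArG box was found in 1.63% of 32851 promoters of the same length, and Dusp5 was the only 1 of 8 members with a region in the table to hold one. The Dusp6 region matched none of the searched motifs on either strand. The ETS site was searched only as the string CCGGAA. The shorter run GGAA, which the printed Dusp6 and Dusp5 regions both hold, was not searched. The other motifs were the cyclic AMP response element TGACGTCA, the AP-1 site TGACTCA, the TATA element TATAAA and the CArG box. TGACGTCA was found in the regions of Dusp1, at -143, and of Dusp8, at -107 and -63, and in 1.79% of all promoters. The string CCGGAA, found in 14.9% of all promoters, and the AP-1 site, found in 5.20%, were in 0 of the 8. A match is a run of letters and not a measured binding site.

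Among the broad nuclear phosphatases, Dusp4 rose, Dusp1 was not called and Dusp2 was too scarce to test. Dusp4 (chromosome 8, 34807297 to 34819894) encodes an inducible nuclear phosphatase of ERK, JNK and p38. It measured 4.77, 3.36, 4.38, 5.28, 5.92 and 3.52 CPM in the normal libraries and 9.17, 7.56, 8.49, 7.70, 3.43 and 11.3 CPM in the tumours. Of the 6 tumours, 5 were above every normal nerve, and tumour replicate 5 lay at the bottom of the normal range. The fold change was 1.75 (95% interval 1.22 to 2.51, log2 0.81, SE 0.24, edgeR adjusted p = 0.0337). The call was a narrow one, since Dusp4 stayed higher but lost the threshold under 11 of the alternatives, among them the Schwann lineage score as a covariate (0.49, edgeR adjusted p = 0.589), the macrophage score as a covariate (0.72, edgeR adjusted p = 0.303), limma-voom (0.70, adjusted p = 0.0550) and the omission of 7 different single libraries (0.68 to 0.82, edgeR adjusted p 0.0577 to 0.0799). Without the 3 libraries that stood apart it was 0.60 (edgeR adjusted p = 0.127).

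Dusp1 (chromosome 17, 26505590 to 26562128), an immediate early gene that is also induced by glucocorticoids, measured 16.6, 35.1, 21.2, 19.0, 16.4 and 33.1 CPM in normal nerve. In the tumours it measured 23.9, 16.7, 15.3, 19.0, 16.3 and 13.3 CPM. The normal mean was carried by replicates 2 and 6, while the other 4 normal nerves lay within the range of the tumours. The log2 fold change was -0.44 (95% interval -0.90 to 0.02, edgeR adjusted p = 0.163), and without the 3 libraries that stood apart it was -0.18. Normal replicates 2 and 6 also had the highest red blood cell scores (8.58 and 9.58, against at most 7.47 elsewhere) and the highest endothelial scores (4.07 and 4.43, against at most 3.99 elsewhere). The part of these transcripts in the Dusp1 level was not tested. In the annotation the Dusp1 locus overlaps Ergic1 on the other strand, and Dusp5, Dusp8, Dusp10 and Dusp16 also overlap annotated genes on the other strand. Reads of such partners cannot be told apart from theirs if strand was ignored. Dusp1 also overlaps annotated genes on its own strand, which strand could not separate. Whether counting used strand is not given in the sources used here.

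Within each library, log2 CPM of Dusp4 minus that of Dusp1 averaged -2.31 ± 0.79 in normal nerve and -1.18 ± 0.65 in the tumours (SD, n = 6 each). The difference between the groups was 1.13, and 0.68 without the 3 libraries that stood apart, again as a description of a pair picked after its values had been seen. Dusp2 (chromosome 2, 127336159 to 127338376), known mainly from activated lymphocytes and myeloid cells, had between 1 and 17 counts in a library, 42 in all over the normal nerves and 43 over the tumours. The T cell markers Cd3e, at 0.29 CPM in normal nerve against 0.57 CPM, and Cd3g, at 0.23 CPM and 0.49 CPM, were also scarce. Of the 6 lymphocyte markers listed, 2 were counted highly enough to be tested, and 0 were called. All 7 macrophage markers were counted highly enough, and 3 were called higher in the tumours. The part of these cells in the Dusp2 level was not tested.

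None of the JNK/p38-selective members was called by edgeR in either direction. Dusp8 (chromosome 7, 142079490 to 142095843), a phosphatase prominent in brain and heart, measured 48.4, 61.0, 53.6, 47.9, 49.6 and 85.6 CPM in normal nerve. In the tumours it measured 42.9, 43.6, 55.4, 42.0, 51.7 and 39.8 CPM. Of the tumours, 4 lay below every normal nerve, 2 lay within the normal range, and normal replicate 6 stood far above the rest. The log2 fold change was -0.33 (95% interval -0.64 to -0.02, edgeR adjusted p = 0.121). It was -0.18 without normal replicate 6, the library with the highest central nervous system score, and -0.10 without the 3 libraries that stood apart. All 8 central nervous system markers were detected, with a score of 2.06 to 6.85 in normal nerve and 2.91 to 5.14 in the tumours, and their part in the Dusp8 level was not tested.

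Dusp10 (chromosome 1, 184013302 to 184075636), a phosphatase of JNK and p38 found in nucleus and cytoplasm, had a mean of 5.62 CPM (SD 0.861) among normal nerves and 4.69 CPM (SD 0.837) among tumours (n = 6 each). Its groups overlapped, with 2 tumours below every normal nerve, and the log2 fold change was -0.26 (95% interval -0.59 to 0.06, edgeR adjusted p = 0.232). Dusp16 (chromosome 6, 134715468 to 134792625), a JNK-directed phosphatase, was the tested member with the fitted change closest to 0, with 30.7 CPM ± 4.05 among normal nerves and 30.9 CPM ± 3.81 among tumours. Its log2 fold change was 0.01 (95% interval -0.22 to 0.23, edgeR adjusted p = 0.969). As a fold change, that interval of the fit without covariates runs from 0.860 to 1.175 of the normal level.

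**Figure D4:**
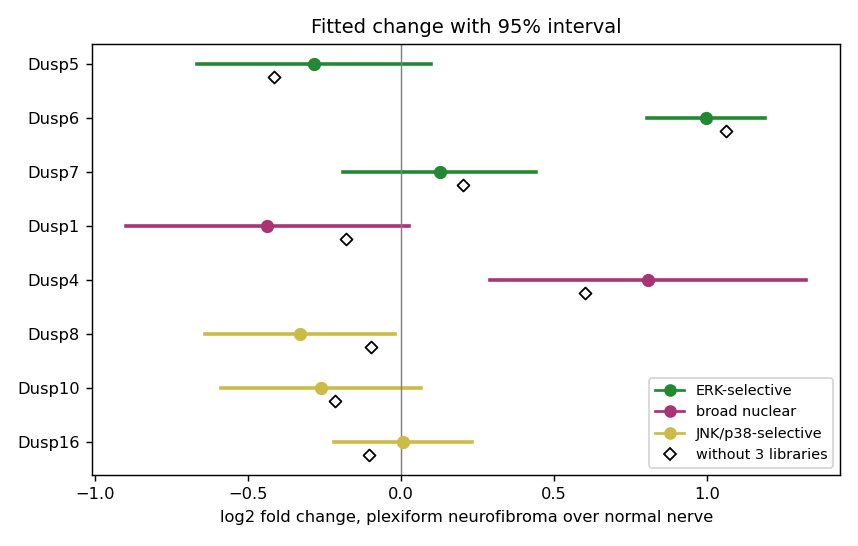
Fitted log2 fold change of the 8 tested phosphatases, plexiform neurofibroma over normal nerve (horizontal axis), with the 95% interval as a line, colour giving the class and open diamonds the value without the 3 libraries that stood apart. Dusp6 at 0.998 and Dusp4 at 0.81 lie to the right, and Dusp8 and Dusp1 move towards 0 without those libraries.

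Over all libraries the mean summed level of the family was close in both groups, and Dusp6 made up more of it in every tumour. The 10 members together came to 54.5 RPKM ± 4.83 in normal nerve and 57.2 RPKM ± 2.25 in the tumours (SD, n = 6 each). ERK-selective members made up 41.3% ± 5.15 of that sum in normal nerve and 51.2% ± 2.86 in the tumours, and their ranges just touched, at 46.2% for the highest normal nerve and 46.0% for the lowest tumour. JNK/p38-selective members made up 36.7% ± 2.16 and 30.2% ± 1.54, with no overlap. Broad nuclear members made up 21.98% ± 4.52 and 18.6% ± 2.98, with overlap. Dusp6 alone went from 14.8% ± 1.13 to 27.9% ± 2.88. This was a larger rise than that of the ERK-selective class, so the mean share of its other members together was smaller in the tumours. Shares are tied to one another, and the summed RPKM of the JNK/p38-selective members overlapped between the groups, at 17.97 to 25.7 RPKM in normal nerve and 16.1 to 18.3 RPKM in the tumours. Without the 3 libraries that stood apart, the ERK-selective share was 44.5% ± 1.88 in 4 normal nerves and 52.2% ± 1.47 in 5 tumours, with no overlap. The summed level of the family did not overlap then either. It ran from 50.99 to 53.36 RPKM in those 4 normal nerves and from 54.62 to 60.94 RPKM in those 5 tumours.

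**Figure D5:**
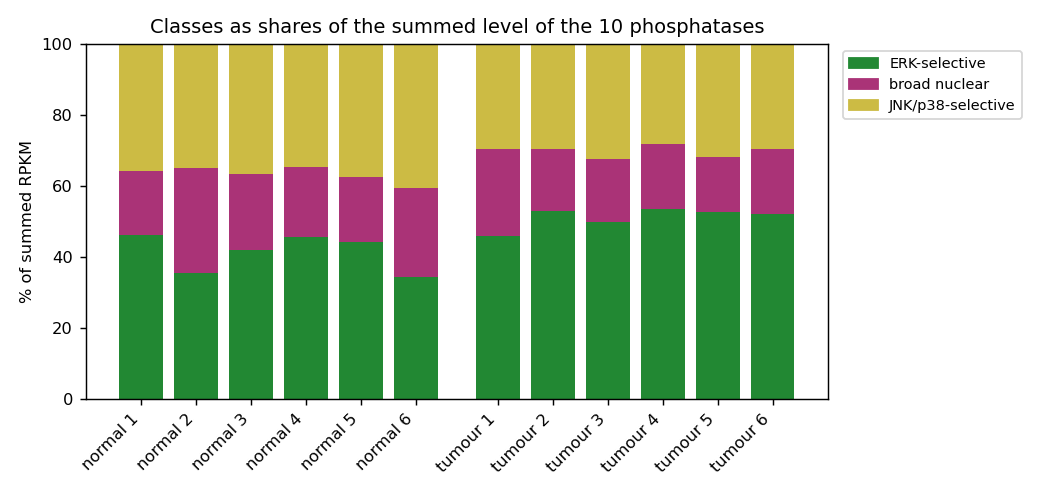
Share of the summed RPKM of the 10 phosphatases (vertical axis, percent) that each class makes up, with 1 stacked bar per library. The ERK-selective share runs from 34.4% to 46.2% in the normal libraries and from 46.0% to 53.4% in the tumours.

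The genes with the profile most like that of Dusp6 were taken by the root mean square distance between z-scored log2 CPM over the 12 libraries, among 11644 tested genes with a mean of at least 5 CPM. They were Atp8b1, a phospholipid flippase subunit (distance 0.26), Rps16-ps2, a ribosomal protein pseudogene whose counts are uncertain (0.27), and Cdkn2c, an inhibitor of cyclin-dependent kinases (0.27). The median distance to Dusp6 was 1.38. The means of Cdkn2c were 3.26 CPM among normal nerves and 9.70 CPM among tumours. For Dusp4 the nearest genes were Dmd, which encodes dystrophin (0.41), Pomk, a kinase that acts on the sugar chains of dystroglycan (0.41), and Tmem168 (0.47), with a median distance of 1.36. The neighbours of Dusp4 were farther away than those of Dusp6. A z-scored distance leaves out the size of a change. The log2 fold changes were 0.515 for Dmd, 0.29 for Tmem168 and 0.12 for Pomk, which was not called (edgeR adjusted p = 0.22).

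Other genes of the pathway gave 13 calls among 74 tested genes in 8 lists, or 17.6%, near the 18.7% of all tested genes called in either direction, so the lists are described gene by gene. Among atypical dual-specificity phosphatases, 1 of 13 tested was higher and 1 lower. Dusp14, a small phosphatase linked to T cell signalling, was higher with a log2 fold change of 0.52 (edgeR adjusted p = 0.00641), from 5.65 CPM ± 0.571 to 8.11 CPM ± 0.674, and its groups did not overlap. Dusp26, a neuronal phosphatase, was lower, from 91.5 CPM ± 12.2 to 60.9 CPM ± 13.6 (SD, n = 6 each, log2 -0.59, edgeR adjusted p = 0.0148). Dusp15, expressed in myelinating glia, measured 140 CPM ± 61.6 and 214 CPM ± 53.1 and was not called (edgeR adjusted p = 0.138). Among other phosphatases that act on MAP kinases, 1 of 8 tested was lower, Ppm1b, at 0.807 of the normal level (edgeR adjusted p = 0.0108).

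The kinases of the cascades that the family restrains gave few calls. Of the 7 RAF, MEK and ERK genes, edgeR called 0, with 1 lower at an unadjusted p under 0.05, and DESeq2 and limma-voom each called 1 lower. Of 10 tested JNK and p38 kinases and their upstream kinases, 2 were lower, Mapk8, which encodes JNK1 (log2 -0.25, edgeR adjusted p = 0.0399), and Map2k4 (log2 -0.28, edgeR adjusted p = 0.0453). Neither was called without the 3 libraries that stood apart.

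Other inhibitors that ERK signalling induces moved in both directions. Of 8 tested Sprouty, Spred and related genes, Spry1 (log2 1.10, edgeR adjusted p = 0.0150) and Spry4 (0.69, adjusted p = 0.0352) were higher, and Spred2 was lower (-0.30, adjusted p = 0.0301). Of 11 ERK-responsive transcription factors and targets, Ccnd1 (2.22, adjusted p = 0.00191), Etv4 (1.39, adjusted p = 0.00399) and Phlda1 (0.91, adjusted p = 0.0133) were higher and 0 were lower, with 1 lower at an unadjusted p under 0.05 and 0 by DESeq2 and limma-voom. Etv5, a close relative of Etv4, went from 85.1 CPM ± 18.6 to 96.6 CPM ± 7.53 and was not called (edgeR adjusted p = 0.335). The median log2 fold change was 0.20 for the Sprouty and Spred list and 0.18 for the ERK targets, beside -0.02 over all genes tested.

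The gene sets that share inducers with Dusp1 were also read. Of 10 tested immediate early genes, Nr4a1 alone was higher (log2 0.81, edgeR adjusted p = 0.00325), and the count rose to 5 without the 3 libraries that stood apart. Fos, at 7.68 CPM ± 9.47 among normal nerves and 12.9 CPM ± 7.10 among tumours, varied widely and was not called (edgeR adjusted p = 0.385). The immediate early score was highest among normal nerves in replicate 6 (4.19), which is also a library with high Dusp1. Of 7 glucocorticoid-responsive genes, Zbtb16 alone was called, and it was lower (-1.23, edgeR adjusted p = 0.0149). The glucocorticoid score was highest in normal nerve replicate 2 (6.44), the library with the highest Dusp1, and was low in replicate 6 (5.41). The part of either response in the Dusp1 level was not tested.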

How the data were processed

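RNA was measured in 12 samples, 6 per group. Per the labels' protocols, column-purified total RNA went into polyA libraries. The label names a stranded kit and, separately, TruSeq, so strandedness is uncertain. Per the submitters' processing notes, the build was mm10 and the tools included Salmon 0.60, STAR 2.4.2a, FastQC and DESeq2, listed without roles. Which annotation was used, and with what strand setting, is not given in the sources used here.

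A table that the authors deposited holds estimated counts per gene symbol, not normalized, of which 84.1% to 86.5% per library were whole numbers within 0.001. These expected counts were rounded to whole numbers. Genes were filtered with filterByExpr, which left 17236, and tested with edgeR 4.0.16 in R 4.3.3 by its quasi-likelihood F test, with TMM factors and robust fitting and without covariates. Benjamini-Hochberg adjustment ran over all genes tested, with calls under 0.05. CPM uses TMM-scaled library sizes, and RPKM divides it by the longest transcript in GENCODE vM21 on GRCm38, the assembly of mm10, where 45187 of the 47480 symbols matched. A score is the mean log2 CPM (prior count 2) of a list's measured genes. Single values per library were compared by two-sided exact permutation tests. Catalytic loops were read from the GENCODE transcripts. Promoters came from RefSeq, where 8 of the 10 members matched (not Dusp4 and Dusp9).

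The members and lists were chosen with earlier results of these data known. Named genes are the members, Nf1, up to 4 called genes per pathway list (in lists without calls, the lowest p), and the 3 nearest genes of each called member. A gene that this rule gives is not reported here. Dusp15, Etv5, Fos, Btg2, S100b, Scn10a, Cd3e and Cd3g are named outside this rule, after their values were seen, and the within-library pairs and the omission of 3 libraries were chosen in the same way. The alternatives were upper-quartile or RLE factors, omitting the filter, requiring CPM above 1 in 6 or more libraries, DESeq2 1.42.0, limma-voom with sample weights (limma 3.58.1), a transcript length correction, 6 covariates, and each library left out. Simulated data with known changes were used to test the scripts.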

Additional observations from a re-analysis of the deposited data

Results flagged for a closer look

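In groups of 6 samples, the highest and lowest values were set against the rest by their gap to the nearest sample as a share of the group's range, with Dixon's 95% limit. Chance alone marks about 1 group in 20, and 30 groups were tested. Dusp8 in normal nerve replicate 6, at 85.64 CPM, stood above the other 5 normal nerves, with a gap of 0.653 of the range. Dusp9 in the same library, at 0.4647 CPM, stood above the others with a gap of 0.693, and this value rests on 7 counts. Replicate 6 is the normal nerve with the highest central nervous system and red blood cell scores. In plexiform neurofibroma replicate 1, the broad nuclear members made up 24.32% of the family's RPKM, with a gap of 0.682, and Dusp1 was the highest of the tumours there at 23.9 CPM. That tumour also had the highest skeletal muscle score. The part of these other transcripts in the 3 values was not tested.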

How the results depend on the processing

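Dusp6 was higher in every alternative run (log2 0.88 to 1.06) and called in all but the fit with the Schwann lineage score as covariate. The count of 2 members higher was 1 under limma-voom, with the macrophage score as covariate and without the 3 libraries that stood apart, 0 with the Schwann score, and 1 to 2 with single libraries left out. The count of 0 lower was 1 under limma-voom. The 13 pathway calls became 20 with DESeq2, 24 with limma-voom, 20 with the central nervous system score, 0 with the Schwann score, 2 with the macrophage score, and 9 to 23 with single libraries left out. Dusp6 minus the Schwann score (0.27) was -0.021 by the median marker, 0.19 by S100b alone (exact permutation p = 0.0498), 0.47 without the 3 libraries and 0.17 to 0.36 without single ones. Directions reversed, with none of the members called, for Dusp8 (0.22), Dusp10 (0.11), Dusp1 (0.34) and Dusp16 (-0.37) with the Schwann score, for Dusp5 (0.0021), Dusp7 (-0.29) and Dusp16 (-0.13) with the macrophage score, and for Dusp16 also under limma-voom (-0.049), without the 3 libraries (-0.11) and without single libraries (-0.047 to 0.057). Without the 3 libraries Btg2 reversed to 0.59 (edgeR adjusted p = 0.0431). The cause of these changes was not tested. The ranges of the Schwann score barely overlapped between the groups, so that covariate and the group cannot be told apart. No paired analysis was possible because the labels carry no replicate numbers shared between the groups.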
